A study of Mus musculus with 20 samples.

Results

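The genes described here are 10 precursors of signalling peptides known from the hypothalamus: Penk, Cck, Nucb2, Bdnf, Gal, Nts, Trh, Pomc, Cartpt and Sst. They are 10 of the 18820 genes measured by a probe set with a single symbol, and each has exactly 1 such probe set. The list was selected on changes already measured on these arrays, among them decreases of Penk, Nucb2 and Bdnf in E46 cells with serotonin. The arrays, 20 in all, carried total RNA of the mouse lines mHypoE-46 (here E46) and mHypoA-2/12 (here A2/12), both derived from hypothalamic neurons, in a study of serotonin and the appetite peptide Npy. By the labels, E46 cells are sensitive to serotonin while A2/12 cells do not respond to it. All cells were grown in DMEM with 10% serum to 90% confluency and then moved to serum-free medium with penicillin and streptomycin, and serotonin was added to the treated cells after 4 h, with a 24 h exposure. There are 5 groups of 4 arrays. E46 cells were untreated controls, or had serotonin at a dose labelled 100 or labelled 1 (µg/ml), and A2/12 cells were controls or had the dose labelled 100. Another label of the treated E46 arrays exchanges both doses, and the titles are followed here. Each kind of cell is a single line, and whether the arrays of a group stand for separate cultures is not stated, so every p-value measures only the spread between arrays.

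All levels below are log2 values made with RMA, so a step of 1 is a doubling, and levels of different genes are not compared because each probe set has its own brightness. A background level was taken from 1157 odorant and pheromone receptor genes: 95% of them lay below 4.38 in E46 controls, 4.45 in E46 at the labelled 100, 4.66 in E46 at the labelled 1, 4.36 in A2/12 controls and 4.35 in A2/12 at the labelled 100. On single arrays this level ranged from 4.25 to 5.36, and the correlation between any pair of arrays from 0.933 to 0.998. A change is a difference of log2 means with its standard error (SE) from 1 limma fit over all 20 arrays, and it was called when its Benjamini-Hochberg adjusted p over all 18820 genes was below 0.05. The number of arrays limits the precision of all values. Centring each array on its median moved the median change of all genes from -0.003 to 0.120 in E46 and from 0.002 to 0.162 in A2/12, both at the labelled 100, and the share of increases among called genes from 51.3% to 66.4% and from 54% to 68.8%. Changes of the peptide genes that this scaling takes across the threshold are named where they occur.

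Neuropeptides are cut from larger precursor proteins in the secretory pathway, trimmed and often amidated, stored in vesicles and released to act mostly on G protein-coupled receptors. Hypothalamic neurons use them to control feeding, pituitary hormones, body temperature and stress responses. Penk is the precursor of the opioid enkephalins, and Pomc yields beta-endorphin and the melanocortins that suppress feeding. Cck encodes cholecystokinin, a satiety peptide, Nucb2 the precursor of nesfatin-1, which reduces food intake, and Cartpt the CART peptide, which does so too. Gal encodes galanin, Nts neurotensin, Trh thyrotropin-releasing hormone and Sst somatostatin. Bdnf, a neurotrophin made from a proprotein, acts on the receptor TrkB and restrains feeding in the hypothalamus. Several of these genes are textbook targets of the cAMP response element (CRE), the DNA site of the transcription factor CREB.

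The sequences before the starts of 9 of the 10 genes, all but Penk, were taken from RefSeq (build GRCm38.p6), in 15 windows of 250 bases. They are shown for 4 genes because they contrast a gene that was higher in one line with serotonin (Cck), one that was lower in both (Nucb2), and the pair with a complete CRE (Cartpt and Sst). Each runs 5′ to 3′ on the strand of its gene and ends at the base before the start, and capitals mark a complete CRE, a CRE core, an AP-1 site or an ATF4 composite site found on either strand. The windows lie at chr9:121495695-121495944, minus strand, for Cck, chr7:116504119-116504368, plus strand, for Nucb2, chr13:99900684-99900933, minus strand, for Cartpt and chr16:23890845-23891094, minus strand, for Sst.
Cck: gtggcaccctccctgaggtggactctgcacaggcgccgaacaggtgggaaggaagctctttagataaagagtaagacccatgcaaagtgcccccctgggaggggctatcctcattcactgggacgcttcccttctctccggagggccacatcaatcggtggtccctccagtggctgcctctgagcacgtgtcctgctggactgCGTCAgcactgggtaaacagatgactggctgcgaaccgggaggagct
Nucb2: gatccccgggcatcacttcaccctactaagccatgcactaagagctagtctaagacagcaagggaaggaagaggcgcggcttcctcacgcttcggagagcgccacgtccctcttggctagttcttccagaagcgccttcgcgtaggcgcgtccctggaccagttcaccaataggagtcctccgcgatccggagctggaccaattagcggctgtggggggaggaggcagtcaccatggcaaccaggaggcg
Cartpt: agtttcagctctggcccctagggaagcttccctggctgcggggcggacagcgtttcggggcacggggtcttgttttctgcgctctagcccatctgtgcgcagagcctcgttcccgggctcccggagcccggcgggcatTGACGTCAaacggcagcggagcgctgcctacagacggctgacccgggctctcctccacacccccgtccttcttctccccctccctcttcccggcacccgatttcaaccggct
Sst: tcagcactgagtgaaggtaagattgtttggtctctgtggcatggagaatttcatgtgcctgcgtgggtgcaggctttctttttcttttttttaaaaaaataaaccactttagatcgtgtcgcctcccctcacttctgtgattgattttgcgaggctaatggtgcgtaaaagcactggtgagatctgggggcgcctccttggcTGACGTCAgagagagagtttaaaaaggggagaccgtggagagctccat

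The complete CRE, TGACGTCA, was found 48 to 41 bases before the start of Sst and 112 to 105 bases before that of Cartpt, and in 1.55% of all 32851 RefSeq windows of this length. Its core TGACG, of which a complete CRE holds one on each strand, was present in 17.8% of all windows. It stood alone 47 to 43 bases before Cck, 96 to 92 bases before Trh, 166 to 162 bases before Nts and 35 to 31 bases before one of the 7 Bdnf starts. For the AP-1 site a loose pattern was searched, TGANTCA with any base at N (6.75% of all windows). It matched TGAGTCA before Nts and TGAATCA before another Bdnf start. The ATF4 composite site TGATGNAA (3.45%) was found 159 to 152 bases before Nts. The TATA box TATAAA (12.4%) was found before Pomc, 25 to 20 bases from the start, and is not in capitals above. Neither the Nucb2 nor the Gal window held any of the 5 motifs. A match is a description of these letters and not a measured site.

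**Figure D1:**
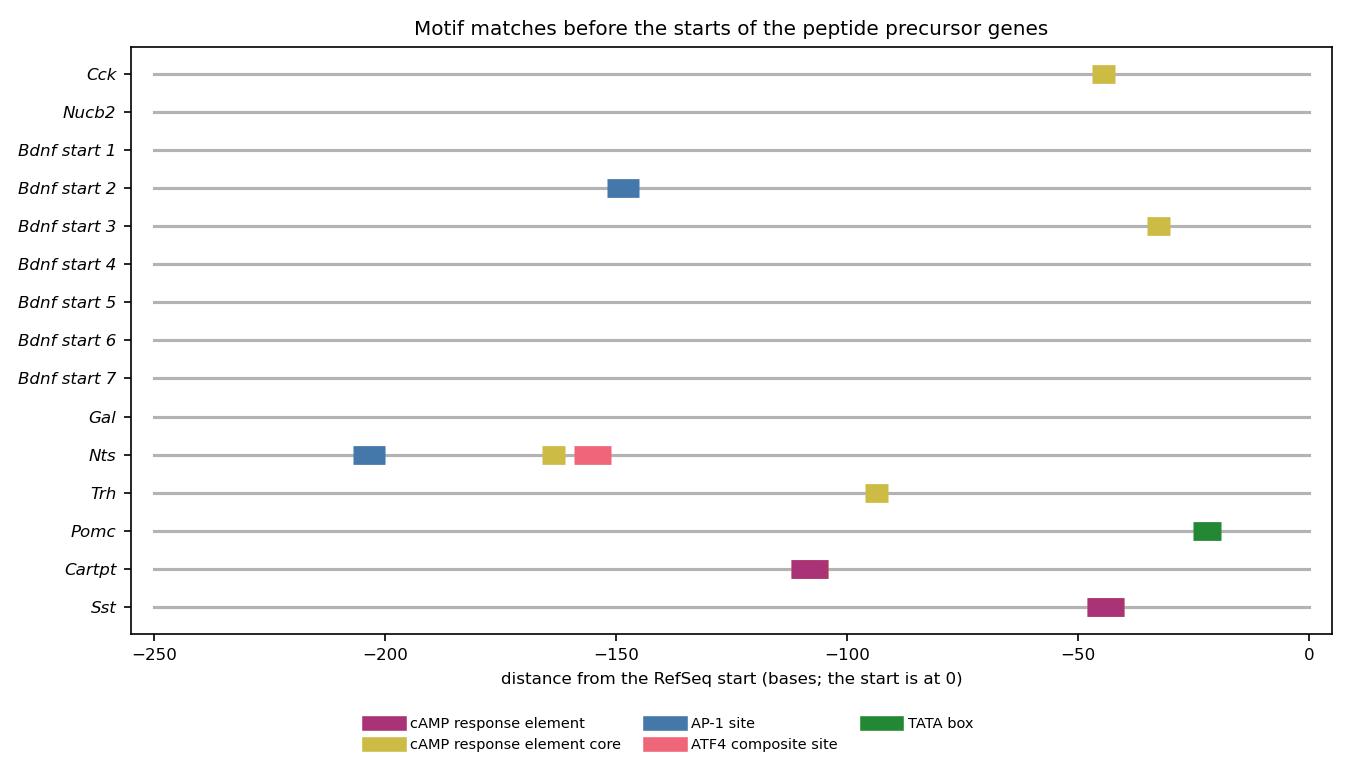
Matches to 5 motifs on either strand in the 250 bases before each RefSeq start of 9 peptide precursor genes; the x-axis is the distance from the start in bases, grey lines are the 15 windows and coloured bars the matches. The complete CRE lies before Cartpt and Sst, and the windows of Nucb2 and Gal are empty.

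Measured against the receptor gene background, the peptide genes fell into 4 kinds. Penk, Nucb2 and Bdnf had group means above it in all 5 groups, also against the 99th percentile of the receptor genes. Cck was above background in A2/12 with serotonin and in no other group. Its mean there, 5.18, was just above the group's 99th percentile of 5.15. On single arrays only replicate 1, at 5.85, passed the 99th percentile of its own array. Gal, Nts, Trh and Pomc had group means below background in every group, while Cartpt and Sst lay just above the 95th percentile, between 4.84 and 5.19. Against the stricter 99th percentile (5.02 to 5.43 over the groups), the group means of Cartpt were below it throughout and those of Sst exceeded it in E46 controls alone.

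**Figure D2:**
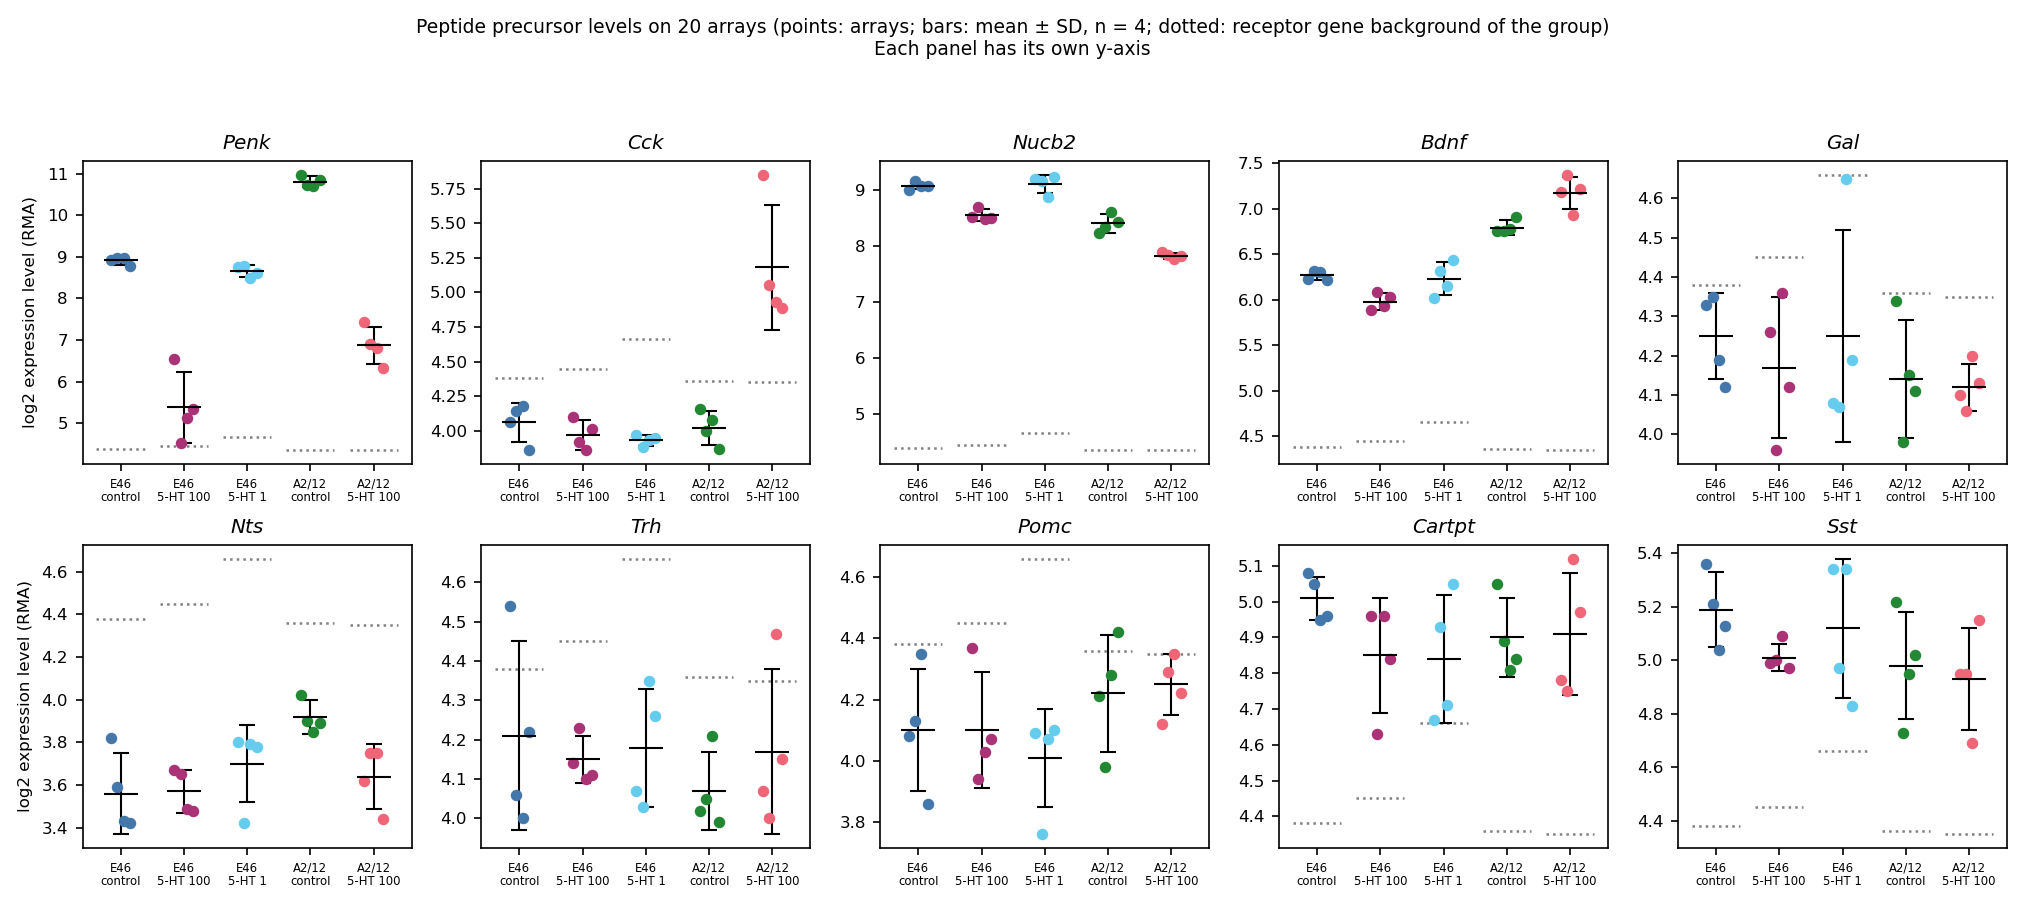
Log2 expression level (y-axis, a separate scale in each panel) of the 10 peptide precursor genes on each of the 20 arrays (points, 4 a group; 5-HT is serotonin, with the labelled dose), with group means ± SD and the group's receptor gene background as a dotted line. Penk is low in both groups at the labelled 100, Cck is above the dotted line in A2/12 with serotonin alone, and the points of Gal, Nts, Trh and Pomc lie mostly below it.

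Penk, the enkephalin precursor, was lower with serotonin labelled 100 in both cell lines. In E46 controls its level was 8.93, 8.96, 8.98 and 8.77 on the 4 arrays (8.91 ± 0.10, mean ± SD, n = 4). At the labelled 100 it was 6.54, 4.51, 5.13 and 5.34 (5.38 ± 0.85), far below every control array. The treated arrays also spread more widely than the controls, and replicate 2, at 4.51, was not above its own array's background of 4.53. The difference was -3.53 ± 0.28 (95% interval -4.11 to -2.95), an 11.6-fold lower level on the measured values. The treated mean lay 0.92 above background, near which changes are compressed, so the fall may be understated. The changes of Penk with this dose, and those of Nucb2 and Cck, for which the list is named, were known when the genes were chosen, so they and the differences between control groups have no p-value here.

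At the labelled 1 the E46 arrays read 8.75, 8.78, 8.48 and 8.61 for Penk (8.65 ± 0.14), which overlaps the controls. The difference from controls of -0.25 ± 0.28 was not called (limma, adjusted p = 0.66), and its interval runs from -0.83 to 0.32. The SE pools all 5 groups, and the arrays at the labelled 100 spread most (SD 0.85 in E46 and 0.45 in A2/12). It is thus wide for the groups compared here, whose SDs were 0.10 and 0.14. Their overlap is slight, with the lowest control array at 8.77 and the highest labelled 1 array at 8.78. Penk at the labelled 100 lay 3.28 ± 0.28 below Penk at the labelled 1, with no overlap of the arrays. A2/12 controls had the highest Penk of all groups, at 10.97, 10.72, 10.69 and 10.85 (10.80 ± 0.13), which is 1.90 ± 0.28 above E46 controls, a called difference. With serotonin the A2/12 arrays read 7.43, 6.91, 6.81 and 6.33 (6.87 ± 0.45), all far below the controls. The change of -3.93 ± 0.28, a 15.3-fold lower level, was called by limma. Between the lines the responses differed by -0.40 ± 0.39 (interval -1.22 to 0.41), which was not called. The E46 fall ended near background and may be understated, which limits this comparison. In order of level, A2/12 controls stood apart from E46 controls, and the labelled 1 in E46 from A2/12 with serotonin, while E46 controls overlapped E46 at the labelled 1 and both groups at the labelled 100 overlapped each other.

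Nucb2, the nesfatin-1 precursor, was lower at the labelled 100 by a similar small amount in both lines. Its level was 9.01, 9.16, 9.08 and 9.08 in E46 controls (9.08 ± 0.06) and 8.53, 8.71, 8.48 and 8.51 at the labelled 100 (8.56 ± 0.10). No treated array reached a control array, and the difference was -0.52 ± 0.09, a 1.44-fold lower level. In E46 at the labelled 1 the level was 9.20, 9.16, 8.89 and 9.24 (9.12 ± 0.16), within the range of the controls and beyond it on both sides. The difference of 0.04 ± 0.09 was not called (limma, adjusted p = 0.823), with an interval of -0.14 to 0.22.

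In A2/12 Nucb2 was at 8.23, 8.34, 8.62 and 8.44 in controls (8.41 ± 0.17) and at 7.89, 7.84, 7.77 and 7.83 with serotonin (7.83 ± 0.05). Again the groups did not overlap, and the called change of Nucb2 was -0.58 ± 0.09. Both decreases differed by -0.05 ± 0.12 (interval -0.31 to 0.20). A2/12 controls lay 0.67 below E46 controls (SE 0.09), also a called difference and the opposite order to that of Penk. Its paralog Nucb1, nucleobindin 1, went from 9.19 ± 0.09 to 9.02 ± 0.05 in E46 and from 9.57 ± 0.10 to 9.09 ± 0.03 in A2/12. Its change of -0.48 ± 0.06 in A2/12 was called, and that of -0.17 ± 0.06 in E46 was called with an adjusted p of 0.0388 by limma but not after median centring (-0.04, adjusted p = 0.75).

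Bdnf, the neurotrophin, was slightly lower with serotonin in E46 and higher in A2/12. In E46 it read 6.23, 6.32, 6.30 and 6.22 in controls (6.27 ± 0.05), 5.89, 6.08, 5.93 and 6.03 at the labelled 100 (5.98 ± 0.09) and 6.02, 6.31, 6.15 and 6.43 at the labelled 1 (6.23 ± 0.18). The 4 arrays at the labelled 100 all lay below the controls, while those at the labelled 1 spread around them. The difference of -0.29 ± 0.09 at the labelled 100 was called on the deposited scale and not after quantile normalization (-0.16, adjusted p = 0.159) or median centring (-0.16, adjusted p = 0.174). The difference at the labelled 1 was -0.04 ± 0.09 (limma, adjusted p = 0.862).

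In A2/12 the Bdnf level was 6.75, 6.75, 6.77 and 6.91 in controls (6.79 ± 0.08) and 7.18, 7.37, 6.93 and 7.21 with serotonin (7.17 ± 0.18). The lowest treated array, 6.93, was just above the highest control array, 6.91. Bdnf rose by 0.38 ± 0.09, or 1.30-fold, a called change. The A2/12 response minus the E46 response was 0.67 ± 0.13 (interval 0.40 to 0.94) and was called, also after quantile normalization and median centring. Bdnf was chosen with results of these arrays known, among them its E46 change. Its A2/12 change and the difference of responses are therefore descriptions and have no p-value here. In controls A2/12 was 0.53 ± 0.09 higher than E46, a called difference.

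Cck, the cholecystokinin gene, was seen above background only in A2/12 cells with serotonin, among these 5 groups. There it read 5.85, 5.05, 4.93 and 4.89 (5.18 ± 0.45), above the array's own background on 4 of 4 arrays. In A2/12 controls it read 4.16, 4.00, 4.08 and 3.87 (4.02 ± 0.12), below background on every array. With each control array set to its background level the rise was at least 1.68-fold, or 0.75 on the log2 scale, and without the highest treated array, replicate 1, at least 1.44-fold. On the measured values the change was 1.16 ± 0.15, between 0.93 and 1.25 when any single array was left out, and it was called.

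In E46 Cck stayed below background in all 3 groups, at 4.06 ± 0.14 in controls, 3.97 ± 0.11 at the labelled 100 and 3.93 ± 0.04 at the labelled 1. No fold is given for E46, and a decrease could not have been seen there. The fitted A2/12 response exceeded the E46 response by 1.24 ± 0.21 (interval 0.81 to 1.68), a called difference that rests on the A2/12 serotonin arrays.

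**Figure D3:**
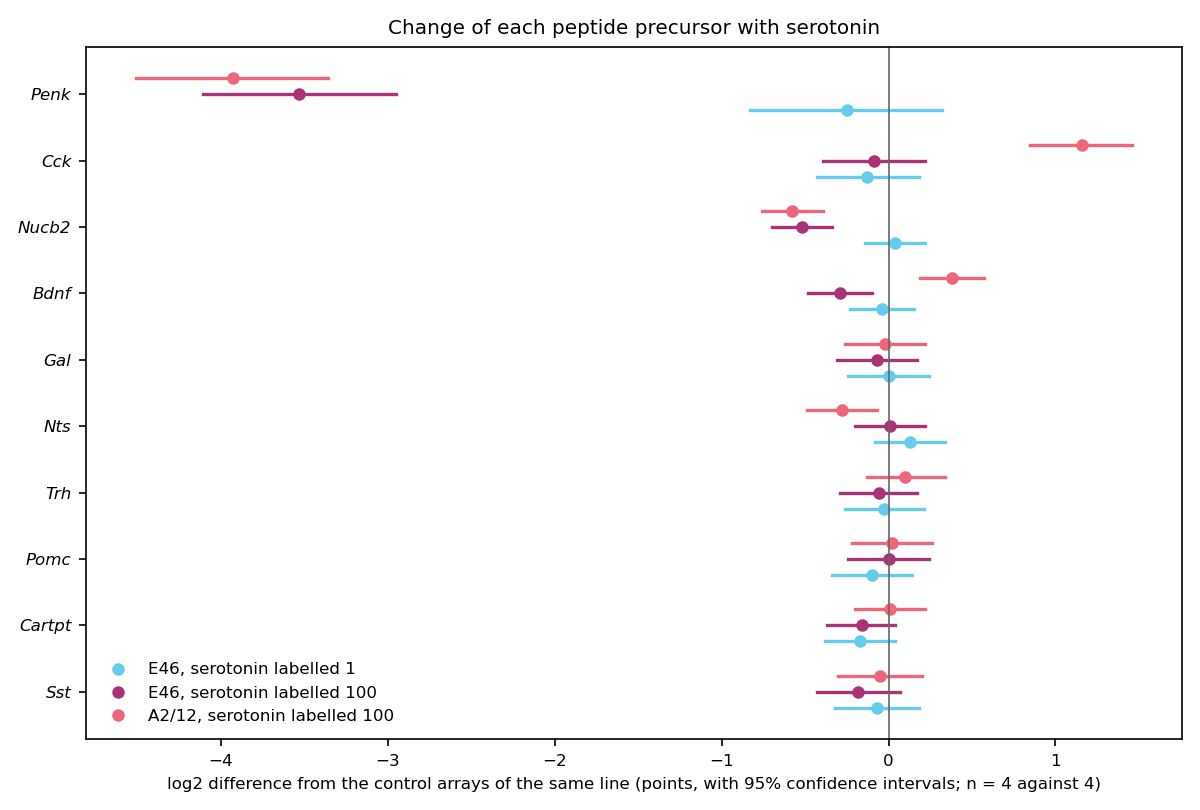
Log2 difference from the control arrays of the same cell line (x-axis; points, with 95% confidence intervals from the limma fit, 4 arrays against 4) for each of the 10 peptide precursor genes. Penk lies at -3.53 in E46 and -3.93 in A2/12 at the labelled 100, Bdnf lies on opposite sides of 0 in both lines (in E46 not called after median centring or quantile normalization), and at the labelled 1 no gene stands apart from 0.

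Of the precursors below background, Nts, the neurotensin gene, had the one called change with serotonin. It was at 4.02, 3.90, 3.85 and 3.89 in A2/12 controls (3.92 ± 0.08) and at 3.62, 3.75, 3.75 and 3.44 with serotonin (3.64 ± 0.15), with no overlap. The difference of -0.28 ± 0.10 (limma, adjusted p = 0.0293) was below background on both sides and has no fold. It was not called after median centring (-0.12, adjusted p = 0.538), or without A2/12 control replicate 1 (-0.24, adjusted p = 0.0845), serotonin replicate 1 (-0.27, adjusted p = 0.0587) or serotonin replicate 4 (-0.21, adjusted p = 0.123). In E46 the Nts group means were 3.56 to 3.70 and no change was called.

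Gal, the galanin gene, had group means between 4.12 and 4.25, with array values from 3.96 to 4.65. Trh, the thyrotropin-releasing hormone gene, had means between 4.07 and 4.21, and Pomc, the melanocortin and endorphin precursor, between 4.01 and 4.25. None of these 3 had a called change in any of the 6 comparisons, and their intervals for the changes with serotonin stayed within -0.34 and 0.34. At such levels neither a decrease nor a small increase is detectable.

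Cartpt, the CART precursor, had means of 5.01 ± 0.06 in E46 controls, 4.85 ± 0.16 at the labelled 100, 4.84 ± 0.18 at the labelled 1, 4.90 ± 0.11 in A2/12 controls and 4.91 ± 0.17 with serotonin. Sst, the somatostatin gene, had means of 5.19 ± 0.14, 5.01 ± 0.05, 5.12 ± 0.26, 4.98 ± 0.20 and 4.93 ± 0.19 in the same order. All neighbours in both orders overlapped. The changes with serotonin ran from -0.17 to 0.01 for Cartpt and from -0.18 to -0.05 for Sst, and none was called. Both genes hold the complete CRE printed above.

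Counted over the 10 genes, 3 were called at the labelled 100 in E46, all lower, where 39.6% of all 18820 genes were called (20.3% higher and 19.3% lower). Since this comparison was known when the genes were chosen, nothing is read from that count. At the labelled 1, limma called 0 of 10, where 0.0106% of all genes were called. At an unadjusted p below 0.05 the labelled 1 had 0 of the 10 genes and 15.9% of all genes. The labelled 100 against the labelled 1 gave 3 lower, Penk, Nucb2 and Bdnf, beside 41.4% of all genes called. The Bdnf difference between these doses, -0.25 ± 0.09, was not called in 11 of 22 alternative settings, among them trended and robust eBayes (-0.25), median centring (-0.23) and the position number as a block (-0.23). In A2/12, 2 were called higher (Cck and Bdnf) and 3 lower (Penk, Nucb2 and Nts), 5 of 10 beside 45.9% of all genes, of which 24.8% were higher and 21.1% lower. The changes of Penk, Nucb2 and Cck at this dose were also known when the genes were chosen, so nothing is read from this count either.

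The difference of responses was called for 2 of the 10, Cck and Bdnf, both higher in A2/12, beside 22% of all genes (10.9% higher and 11.1% lower). Between the control groups 4 of 10 were called, Penk, Bdnf and Nts higher in A2/12 and Nucb2 lower, beside 39.1% of all genes (18.1% higher and 21.1% lower). The Nts difference of 0.35 ± 0.10 lies below background and was not called after median centring (0.32, adjusted p = 0.0965). The median change of the 10 genes was -0.13 in E46 at the labelled 100, -0.05 at the labelled 1 and -0.01 in A2/12, beside medians of all genes of -0.003, -0.039 and 0.002. The E46 serotonin groups share their controls, and the difference of responses is built from both changes at the labelled 100, so these counts are not independent of each other.

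The arrays carry a position number (5, 7 or 9) and a row letter in their scan names, which are the batch information used here. Rows are not shared between the lines, nor between E46 controls and E46 at the labelled 1, so there row and group cannot be told apart. Each position number holds 1 or 2 arrays of each group. Within positions 5, 7 and 9 the Penk change was -3.72, -3.02 and -4.47 in E46 and -4.10, -3.84 and -3.77 in A2/12. Nucb2 changed by -0.56, -0.64 and -0.37 in E46 and by -0.57, -0.48 and -0.78 in A2/12. Bdnf was at -0.29, -0.36 and -0.23 in E46 and at 0.10, 0.45 and 0.61 in A2/12, and Cck in A2/12 at 0.91, 1.37 and 0.98. In none of these 7 changes did the treated and control arrays overlap. The same sign within every position number follows from that and adds no evidence. The difference of responses was 1.02, 1.46 and 1.23 for Cck and 0.39, 0.81 and 0.83 for Bdnf, and Nts in A2/12 changed by -0.21, -0.37 and -0.10.

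**Figure D4:**
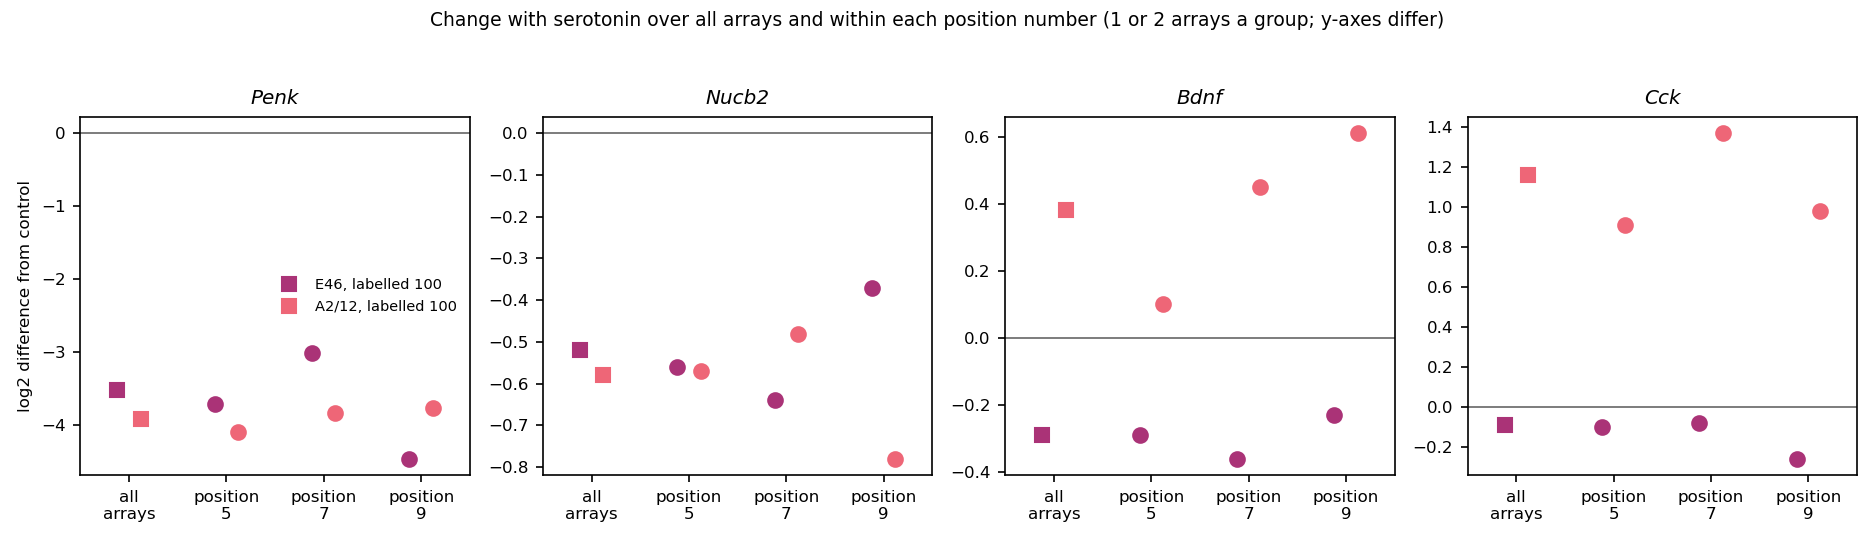
Log2 difference from control (y-axis, a separate scale in each panel) for 4 peptide genes at the labelled 100 in E46 and A2/12, over all arrays (squares) and within each position number of the scan names (circles, 1 or 2 arrays a group). Penk and Nucb2 are below 0 in both lines at every position. Bdnf is below 0 in E46 and above it in A2/12 at every position, by 0.10 to 0.61. These signs follow from treated and control arrays that did not overlap.

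The receptors of these peptides were mostly at background. Of 27 listed receptor genes 26 were measured, and 8 or 9 had group means above background, depending on the group. The opioid receptors Oprm1 (3.90 to 4.16), Oprd1 (4.09 to 4.29) and Oprk1 (2.76 to 3.07) had group means below background in all 5 groups. So did the cholecystokinin receptors Cckar (3.49 to 3.67) and Cckbr (3.81 to 4.02) and the Bdnf receptor gene Ntrk2 (3.72 to 4.03). Ngfr, the low-affinity neurotrophin receptor, lay at 4.98 to 5.25.

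With serotonin at the labelled 100, 3 receptor genes rose and 2 fell in E46, and 1 rose and 4 fell in A2/12, against medians of -0.06 and -0.02 for the list. Of all genes 20.3% were called higher and 19.3% lower in E46, and 24.8% and 21.1% in A2/12. These shares also stand beside the list counts below. Oprk1, among those that rose in E46, and Mc2r, among those that fell in A2/12, were below background. Sort1, sortilin, which binds neurotensin and sorts the Bdnf proprotein, fell in both lines, from 7.98 ± 0.13 to 7.10 ± 0.18 in E46 and from 7.56 ± 0.13 to 4.89 ± 0.14 in A2/12. The fall was larger in A2/12 by 1.78 ± 0.14 (limma, adjusted p = 5.88e-09 for the difference of -1.78). Mc5r, a receptor of the melanocortins cut from Pomc, fell from 6.81 ± 0.08 to 5.22 ± 0.38 in E46 and from 10.88 ± 0.19 to 6.30 ± 0.75 in A2/12, and the difference of responses was -2.98 ± 0.36 (limma, adjusted p = 2.17e-06). Ogfr, the opioid growth factor receptor, which binds an enkephalin, rose by 0.26 ± 0.07 and 0.41 ± 0.07, and Sstr2, a somatostatin receptor, rose in E46 by 0.29 ± 0.08 (limma, adjusted p = 0.00926). No receptor gene was called by limma at the labelled 1.

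Of the other opioid precursors Pdyn, prodynorphin, had group means of 3.77 to 3.97 and Pnoc, the nociceptin precursor, of 4.57 to 4.70, and Penk was the only one of the 4 listed opioid precursor genes with a called change with serotonin. Pdyn and Pomc were below background in every group and Pnoc lay near it, so a decrease of these could hardly have been seen. Among 38 measured precursors of other neuropeptides and related secreted signals (44 listed), 0 rose and 2 fell in E46 at the labelled 100, and 3 rose and 4 fell in A2/12, against medians of -0.05 and -0.03. Edn1, endothelin 1, fell beside Nucb2 in both lines, from 8.15 ± 0.12 to 6.82 ± 0.22 in E46 and from 6.15 ± 0.22 to 4.74 ± 0.13 in A2/12. Calcb, a calcitonin gene-related peptide, fell in A2/12 from 6.60 ± 0.39 to 4.65 ± 0.14 and lay near 4.57 ± 0.25 in E46 controls. Its responses differed by -1.93 ± 0.24 (limma, adjusted p = 4.01e-06). Tac1, the substance P precursor, was 4.90 ± 0.13 in A2/12 controls and 4.37 ± 0.21 with serotonin, and below background in E46.

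Enzymes that cut and modify the precursors moved in both directions. Of 21 measured (24 listed), 2 rose and 8 fell in E46 at the labelled 100, and 6 rose and 6 fell in A2/12, with medians of -0.05 and -0.07. Pam, which amidates peptides such as cholecystokinin and thyrotropin-releasing hormone, fell from 10.24 ± 0.05 to 9.34 ± 0.07 in E46 and from 10.58 ± 0.09 to 8.90 ± 0.07 in A2/12, more in A2/12 by a difference of -0.78 ± 0.10 (limma, adjusted p = 5.64e-06). Cpe, the carboxypeptidase that trims enkephalin and other intermediates, fell by 0.58 and 0.70 on the log2 scale (SE 0.07 each). Qpct, which forms the pyroglutamate end of neurotensin and thyrotropin-releasing hormone, changed by -0.75 ± 0.10 and -0.70 ± 0.10, and Tpst1, a tyrosine sulfotransferase, cholecystokinin being one of the known sulfated peptides, by -0.55 ± 0.06 and -0.44 ± 0.06. The convertase gene Pcsk1 lay below background, at 3.92 to 4.23.

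Of 15 measured peptide-degrading enzymes (16 listed), 6 rose and 4 fell in E46 and 8 rose and 4 fell in A2/12, with medians of 0.07 and 0.20. Mme, neprilysin, which degrades enkephalins, fell beside Penk: from 8.40 ± 0.14 to 6.89 ± 0.55 in E46 and from 11.58 ± 0.12 to 7.49 ± 0.74 in A2/12, a difference of responses of -2.58 ± 0.38 (limma, adjusted p = 2.58e-05). Anpep, aminopeptidase N, which also cuts enkephalins, changed by -1.10 ± 0.15 in E46 and -0.79 ± 0.15 in A2/12. Enpep, aminopeptidase A, which can cut cholecystokinin, fell in A2/12 from 8.00 ± 0.13 to 4.73 ± 0.33 and was below background in E46, at 3.92 to 4.06. Among the enzymes that rose in both lines were Ece2, an endothelin-converting enzyme that also processes neuropeptides (1.23 ± 0.10 and 1.63 ± 0.10), and Prep, prolyl endopeptidase (0.72 ± 0.06 and 0.64 ± 0.06). Neither list had a called gene at the labelled 1 by limma.

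**Figure D5:**
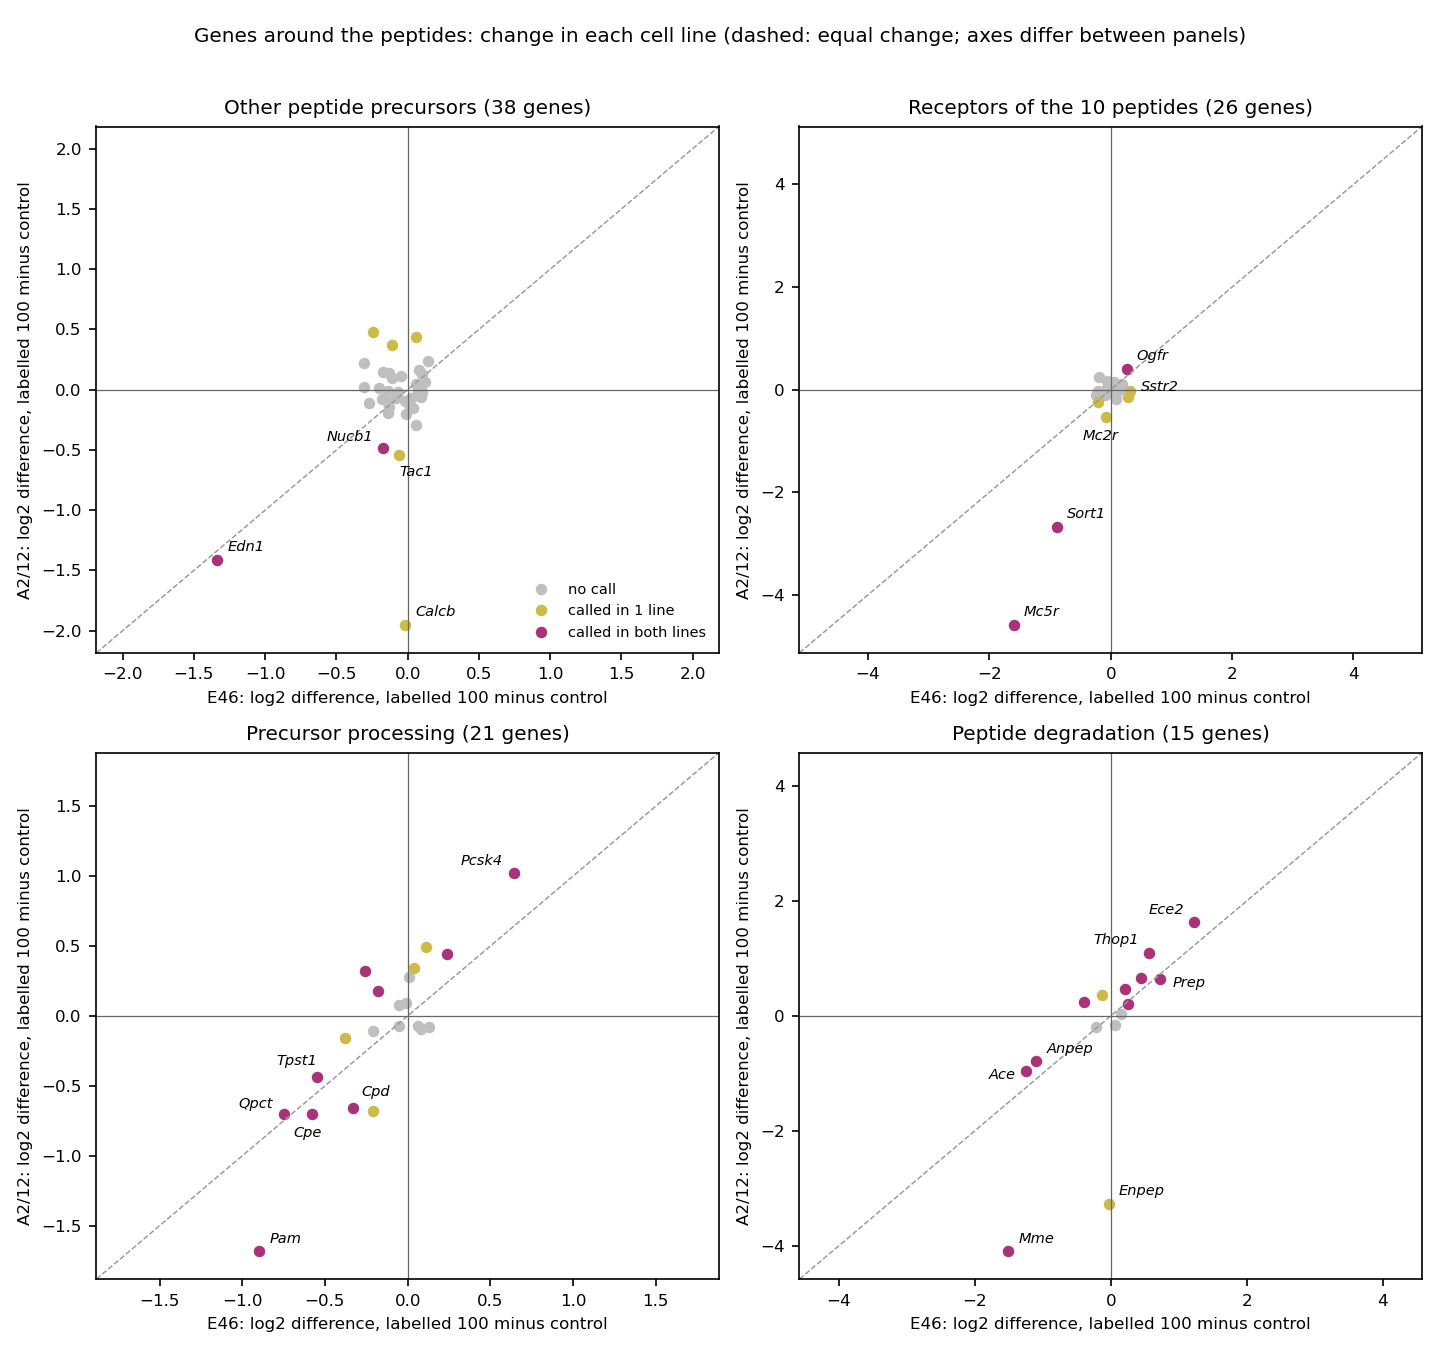
Log2 difference from control at the labelled 100 in E46 (x-axis) and A2/12 (y-axis) for each measured gene of 4 lists around the peptides, coloured by whether limma called it in neither, 1 or both lines; the dashed line is an equal change. Mc5r, Sort1, Mme and Pam lie below the dashed line with decreases in both lines, and Enpep and Calcb lie near 0 on the x-axis.

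A list of CREB and AP-1 regulators was examined because these motifs lie before several of the peptide genes. Besides factors of these sites it holds coactivators, and genes such as Egr1 and Nr4a2 whose proteins bind other sites. Of 20 measured (21 listed), 8 rose and 2 fell in E46 at the labelled 100, and 9 rose and 4 fell in A2/12, with medians of 0.18 and 0.15. Atf3 rose from 6.94 ± 0.12 to 10.17 ± 0.20 in E46 and from 6.90 ± 0.29 to 9.90 ± 0.05 in A2/12. Atf4, the factor of the composite site, rose by 0.73 ± 0.07 and 1.02 ± 0.07. Crtc2, a CREB coactivator, rose by 0.57 ± 0.08 and 0.44 ± 0.08, while its relative Crtc1 fell by 0.29 and 0.73 on the log2 scale (SE 0.08 each). Egr1 fell by 1.54 on the log2 scale in A2/12 (SE 0.08), and its responses differed by -1.58 ± 0.11 (limma, adjusted p = 1.84e-09). Cartpt and Sst, with the complete CRE, had no called change, at group means of 4.84 to 5.19, just above background, where changes are compressed. Any part of these factors in the changes of the peptide genes was not tested.

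Across the 20 arrays the genes with the pattern most like Penk, by Pearson correlation among 12140 genes with a mean above background, were Lox (r = 0.991), which cross-links collagen and elastin, Ecm1 (0.990), Jup (0.986), Cdc42ep2 (0.985) and Pcdh18 (0.984). For Nucb2 they were Edn1 (0.984), Mecom (0.980), Nsdhl (0.979), an enzyme of cholesterol synthesis, Wrn (0.978) and Gria3 (0.976). Cck was most like Ifne (0.957), Itga2 (0.927), Syt17 (0.925), Mapk13 (0.917) and Trem3 (0.910), with a single high group behind each value. That group is A2/12 with serotonin. Ifne and Trem3, like Cck, were below background in every other group, and they passed the level filter only through it. The 20 arrays share 5 groups and 2 lines, so these values describe a common order of groups and have no p-value. Lox, for example, had group means of 11.57 in E46 controls, 9.67 at the labelled 100, 11.59 at the labelled 1, 12.45 in A2/12 controls and 10.52 with serotonin, and, like Penk, lay lower at the labelled 100 than in the controls of each line.

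The labels call both lines hypothalamic neuronal cells. Of 18 measured neuron markers 8 had group means above background in each group, among them Map2 and Ncam1, while Rbfox3, Snap25, Slc17a6 and Gad1 were below it in all 5 groups. Mesenchymal markers were high in both lines, and moved with Penk: 10 of 12 fell in E46 at the labelled 100, and 9 fell and 1 rose in A2/12, with medians of -1.43 and -1.53. The mean level of these 12 genes was 9.49 to 9.63 over E46 control arrays and 7.96 to 8.58 at the labelled 100, and 10.26 to 10.39 over A2/12 controls and 8.49 to 8.89 with serotonin. At the labelled 1, where Penk overlapped its controls, it was 9.52 to 9.63. Of 10 astrocyte markers 7 fell in each line at the labelled 100 and 1 rose in E46, with Gfap below background. The neuron markers had 0 higher and 5 lower in E46 and 1 higher and 4 lower in A2/12, and Map2 fell by 1.79 and 1.92 on the log2 scale (SE 0.10 each). In bulk RNA, fewer cells of a kind and less RNA per cell cannot be told apart, and the part of these marker changes in the decreases of Penk and Nucb2 was not tested. Macrophage markers were uneven over A2/12 controls (mean level 4.71 to 6.09), and 4 arrays had an upper quartile under 8.2. Without those 4 arrays, or without the control arrays with high macrophage or intestinal genes, the same number of peptide genes was called in each comparison.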

How the data were processed

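The deposited log2 values come from Affymetrix arrays and were made by the authors with RMA, per the submitters' processing notes. RMA corrects background, normalizes between arrays and summarises probes, with no version given in the sources used here. The table holds 35556 probe sets: 21218 have 1 symbol in GEO's platform annotation (21185 matched by Entrez ID), 1881 several and 12457 none, and the latter kinds were left out. Where a gene had several (1386 genes), the brightest on average was kept, and 18820 genes remained. No detection calls were used, so changes near background are compressed.

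All 20 arrays entered 1 linear model of group means in limma 3.58.1 (R 4.3.3; lmFit and eBayes, 15 residual degrees of freedom) with 6 comparisons, tested on simulated data. Tables and figures were made in Python 3.11.15 with matplotlib 3.10.9. The 10 genes and the gene lists were chosen with earlier results of these data known. Any p-value given for them is descriptive and no independent test. Named are the 10 genes, up to 4 genes of a described list with the smallest adjusted p, receptors by level, the 5 genes most correlated with Penk, Nucb2 or Cck, and a few genes (Nucb1, Pdyn, Pnoc, Ngfr, Pcsk1, single markers) chosen after their values were seen. Deviations of same-numbered replicates from their group means had correlations of -0.55 to 0.41, with 14 of 40 above 0.1. The replicates were not paired. Alternatives were other samples, eBayes settings, blocks, scalings, filters and probe sets, the description's doses, a fold threshold of 1.5, and fits with arrays left out.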

Additional observations from a re-analysis of the deposited data

Results flagged for a closer look

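Both responses at the labelled 100 differed between the lines for Cck, by 1.24, and for Bdnf, by 0.67, as A2/12 minus E46 on the log2 scale by the interaction term of the limma fit. Cck was below background in E46 with and without serotonin. Bdnf was lower in E46 and higher in A2/12 on the deposited scale, with the E46 change not called after median centring or quantile normalization.

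Dixon's test at 95%, run on the 50 combinations of gene and group, set apart 3 arrays, where chance sets apart about 1 in 20. Bdnf on A2/12 control replicate 4 was 6.91, with the other 3 arrays at 6.75 to 6.77. Nts on E46 at the labelled 1, replicate 2, was 3.42, with the others at 3.78 to 3.80, and Pomc on the same array was 3.76, with the others at 4.07 to 4.10. Both of the latter genes are below background there.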

How the results depend on the processing

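The number of the 10 genes called, by limma, was 3 (E46 at the labelled 100 against controls), 0 (labelled 1 against controls), 3 (labelled 100 against labelled 1), 5 (A2/12), 2 (difference of responses) and 4 (lines). It was the same under each cell line fitted alone (which gives no value for the last 2), the replicate block (3, 0, 3, 5, 2 and 4), which changed no call of these genes, and the leaving out of arrays that stand apart. In the same order median centring gave 2, 0, 2, 4, 2 and 3, quantile normalization 2, 0, 3, 5, 2 and 4, trended and robust eBayes and the position number as a block 3, 0, 2, 5, 2 and 4, and the filter on dim genes, which Nts did not pass, 3, 0, 3, 4, 2 and 3. Cck passed this filter through its A2/12 serotonin arrays alone, so its calls after the filter add nothing. Leaving out 1 array at a time gave 3 to 3, 0 to 0, 2 to 3, 4 to 5, 2 to 2 and 4 to 4. In the labelled 100 against the labelled 1, the lost gene was Bdnf, at -0.18 to -0.23 without E46 labelled 100 replicate 1 or 3 or labelled 1 replicate 2 or 4.

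Fewer arrays within a position number gave fewer calls. Position 5 gave 1, 1, 2 and 0 for E46 at the labelled 100, the labelled 100 against the labelled 1, A2/12 and the difference of responses, and position 9 gave 1, 1, 1 and 0. Position 7 gave 1 for the difference of responses and 1 for the lines, and position 9 gave 1 for the lines. A fold threshold of 1.5 left 1, 1, 2, 0 and 1 in the same 4 comparisons and the lines. The doses of the description gave 0 for E46 at the labelled 100, 3 at the labelled 1 and 5 for the difference of responses, since they exchange both E46 groups. Under them the sign turned for Nucb2 at the labelled 100 (0.04) and the labelled 1 (-0.52), for Penk (3.28), Nucb2 (0.57) and Bdnf (0.25) between the doses, for Atf4 (-0.03), Crtc2 (-0.17), Ece2 (-0.22), Edn1 (0.01), Nr4a2 (-0.08), Prep (-0.07), Qpct (0.01) and Mme (0.07) at the labelled 100, and for Nr4a2 (0.39) in the difference of responses. Of 2741 values of single genes under the other alternatives, 2533 kept their side of the threshold and, where called, their direction, 207 were no longer called, 1 became called (Gal, within a position number) and 0 changed sign with a call on either side. Values without a call did change sign, such as Trh in A2/12 (-0.21 to 0.47) and Sst in A2/12 (-0.43 to 0.31).

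Over all genes, calls fell from 7451 to 1546 in E46, from 7796 to 1475 between the doses, from 8645 to 2606 in A2/12, from 4142 to 790 for the difference of responses and from 7368 to 1744 for the lines with the fold threshold, and to 871, 1371, 1864, 73 and 1292 within position 9. At the labelled 1 they rose from 2 to 284 without replicate 2 of that group, with 0 of the 10 genes among them. Against the 99th percentile of the receptor genes 5 of the 10 genes were above background in some group, in place of 6. Signal near background limits Cck, Gal, Nts, Trh and Pomc most: a decrease from there cannot be seen.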
